A study of Rattus norvegicus with 84 samples.

Results

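The Nr4a genes code for the 3 members of the NR4A family of orphan nuclear receptors, and they were taken as every probe whose gene symbol in the platform's probe-to-gene table was Nr4a1, Nr4a2 or Nr4a3. Each had 1 probe, which made 3 genes of the 13337 named by 22523 probes. Nr4a1 (Nur77, probe ILMN_1361354) lies on chromosome 7 from 134247153 to 134268044, Nr4a2 (Nurr1, ILMN_1355906) on chromosome 3 from 62098739 to 62115926, and Nr4a3 (NOR-2 in the gene list, ILMN_1375922) on chromosome 5 from 67157141 to 67198287, all in the rat build GRCr8. Which exon or UTR each probe targets is not given in the sources used here.

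RNA from hippocampal tissue dissected as CA1, CA3 or DG (dentate gyrus) was measured on 84 Illumina bead arrays, from 28 male F344xBN rats aged 7 months. The rats formed 4 groups of 7, so that drug, behaviour and region gave 12 groups of 7 arrays. SAHA, an inhibitor of histone deacetylases (enzymes that remove acetyl groups from histones), was injected at 50 mg/kg in DMSO, or DMSO alone was given as vehicle (Veh). Home cage rats (HC) had no maze session. RPC rats swam 17 trials of a water maze, starting 10 min after the injection, with a platform shown by both place and cue. A probe trial of 60 s was also given to RPC rats, by the labels at 85 min after the onset of training. This does not match a maze start at 10 min and death at 90 min after the injection, so its exact time is unclear. Death followed the injection by 90 min in every group. RPC rats had also trained for 8 days a week earlier and HC rats had not, so RPC against HC compares the session together with that training. Every rat was injected and every array comes from dissected bulk tissue, in which fewer cells of a type and less RNA per cell cannot be told apart.

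NR4A proteins are transcription factors of the nuclear receptor family that act without a known hormone: their ligand pocket is closed, and their activity follows how much of the protein a cell makes. In neurons they are immediate early genes, copied within minutes of activity when calcium and cAMP act through CREB, bound to cAMP response elements (CRE), and through MEF2. They bind DNA alone, as pairs with each other, or (Nr4a1 and Nr4a2) with the retinoid X receptors. In mice, NR4A factors are needed for some forms of hippocampal memory and for the memory gain that histone deacetylase inhibitors can give.

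Because these genes are read as targets of CREB, the RefSeq promoter windows of Nr4a1 and Nr4a2 (GRCr8, 250 bases before to 50 after the start site) are shown for the CRE half-site, TGACG on either strand, in capitals. 2 of the 3 members are in the promoter table, and Nr4a3 is named only. Both windows lie inside the gene's annotated range, so they belong to an inner start site. The Nr4a1 window is at chr7:134259888-134260187 on the + strand and the Nr4a2 window at chr3:62104838-62105137 on the - strand.
Nr4a1 promoter: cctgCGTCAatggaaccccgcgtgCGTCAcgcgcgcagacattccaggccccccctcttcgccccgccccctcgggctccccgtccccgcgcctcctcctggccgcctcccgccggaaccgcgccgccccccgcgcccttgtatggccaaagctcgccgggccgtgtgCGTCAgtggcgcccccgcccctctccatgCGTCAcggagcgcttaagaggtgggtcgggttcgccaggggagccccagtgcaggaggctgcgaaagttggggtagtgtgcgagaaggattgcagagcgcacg
Nr4a2 promoter: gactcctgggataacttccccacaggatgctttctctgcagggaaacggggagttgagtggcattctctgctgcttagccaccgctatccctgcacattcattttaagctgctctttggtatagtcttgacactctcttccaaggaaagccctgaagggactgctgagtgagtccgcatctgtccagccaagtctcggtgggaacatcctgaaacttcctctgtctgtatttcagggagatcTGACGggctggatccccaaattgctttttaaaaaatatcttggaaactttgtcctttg
Nr4a1 held 4 half-sites, first bases at -246, -226, -82 and -53 from the start site, all on the other strand as CGTCA, and Nr4a2 held 1, at -8. Of 33469 promoters of the same length, 21.2% held at least 1 half-site and 1.11% held 3 or more. Neither window held the full CRE TGACGTCA (1.83% of all promoters), the NR4A response element AAAGGTCA (1.43%) or the AP-1 site TGANTCA (7.33%), searched on both strands, where the half-site is also part of the full CRE. Among genes described below, Crem and Egr1 held 2 half-sites each, Dusp1 3 with 1 full CRE among them, Junb 1 and Npas4 0. These are matches of letters, and no binding was measured.

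Array quality and labels bear on what follows. A probe is called detected on an array at a detection p-value under 0.01. Between 35.4% and 50.0% of probes were detected on an array, and the mean signal ran from 428 to 905. On 8 arrays the median correlation with the rest of their region was over 5 median absolute deviations under the region's median: 3 in labelled CA1, 5 in labelled CA3, all 5 of them RPC, and 0 in labelled DG. Region markers went against 2 labels. Wfs1, which marks pyramidal neurons of CA1, averaged 6.86 ± 0.77 (SD, n = 28, log2) in labelled CA1 and 10.65 ± 0.29 in labelled DG. Of 6 CA1 markers, 5 were highest in labelled DG, and Htr1a was highest in labelled CA1 (8.28 ± 0.67, against 6.71 ± 0.39 in labelled DG). Prox1, the granule cell factor, reached detection on 28 of 28 CA1-labelled arrays but on just 4 of 28 DG-labelled ones. Of 5 detected granule cell markers, 4 were highest in labelled CA1, and Pkp2 was lower there (9.32 ± 0.25) than in labelled DG (10.63 ± 0.15) and labelled CA3 (10.73 ± 0.21). All 4 detected CA3 neuron markers, such as Nectin3, were highest in labelled CA3. Regions are therefore named by their label, and no value below assumes which tissue lay behind labelled CA1 or labelled DG.

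Nr4a1 was too dim to read. Its probe was detected on 2 of 84 arrays, 1 in labelled CA3 (vehicle HC) and 1 in labelled DG (SAHA RPC). On 81 of 84 arrays its raw signal lay under the lowest signal of any detected probe, which was 96 or more. This restates the detection call, which itself depends on the signal, and is no separate evidence. At a looser detection p-value under 0.05 it was detected on 37 arrays. Group medians of the raw signal ran from 84 to 106, and the groups overlapped. With the filter on dim probes dropped, none of 12 comparisons of drug or behaviour called it (limma, lowest adjusted p = 0.746, lowest unadjusted p = 0.103), with log2 differences from -0.12 to 0.18. These values set no limit on how Nr4a1 RNA changed.

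**Figure D1:**
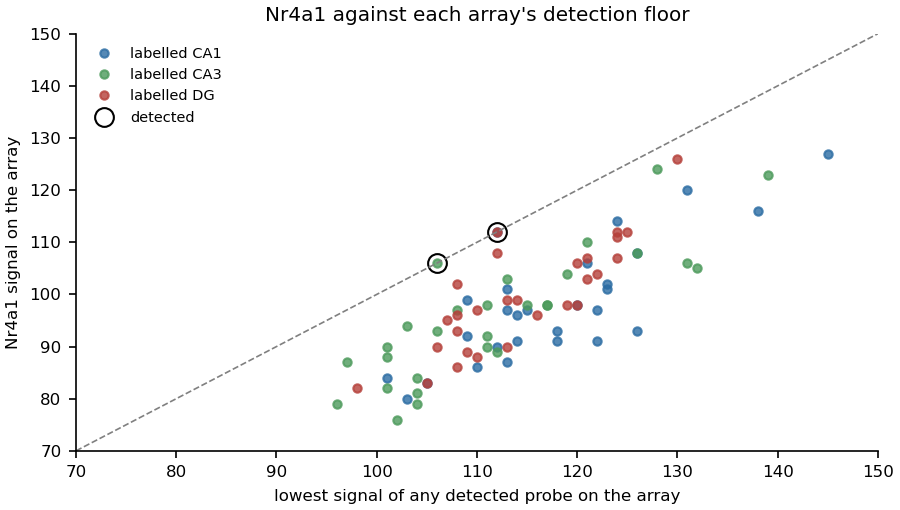
Raw Nr4a1 signal on each of 84 arrays (vertical axis, bead signal) against the lowest signal of any detected probe on the same array (horizontal axis), with the dashed line where both are equal. On 81 arrays Nr4a1 lies under the line, and the 2 circled arrays are those that detected it.

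Nr4a2 and Nr4a3 were detected on 84 of 84 arrays, with raw signals from 172 to 1488 and from 438 to 2281. Levels are given as background-corrected, quantile-normalized log2 values, and since each gene has its own probe, levels of one gene are not set against those of the other. In vehicle HC rats, Nr4a2 was lowest in labelled CA1 (lowest 7.57, median 7.81, highest 7.97), higher in labelled CA3 (8.51, 8.64 and 8.96) and highest in labelled DG (9.12, 9.57 and 9.65). No 2 of these ranges overlapped, which in these directions held for 11.9% of probes between labelled CA1 and DG, 14.9% between labelled CA3 and CA1 and 11.9% between labelled CA3 and DG. The mean difference was -1.69 ± 0.14 (SE, n = 7 per region) between labelled CA1 and labelled DG, a 3.22-fold lower level (limma over all 84 arrays, adjusted p = 1.46e-17). It was 0.89 ± 0.14 between labelled CA3 and labelled CA1 (adjusted p = 6.95e-08) and -0.79 ± 0.14 between labelled CA3 and labelled DG (adjusted p = 2.02e-06). Differences between the dissected regions were common on the array, and 47.9%, 52.1% and 43.3% of 11403 tested probes were called in these comparisons.

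Nr4a3 had another order of regions. In vehicle HC rats it was lowest in labelled CA1 (lowest 9.22, median 9.36, highest 9.52), middle in labelled DG (9.48, 9.83 and 10.17) and highest in labelled CA3 (9.94, 10.04 and 10.38). Labelled CA1 and labelled CA3 did not overlap, and labelled DG overlapped both. Labelled CA1 was lower than labelled DG by a difference of -0.47 ± 0.12 (SE, n = 7, adjusted p = 0.000874), and labelled CA3 was above labelled CA1 by 0.75 ± 0.12 (adjusted p = 2.26e-07). Labelled CA3 against labelled DG gave 0.28 ± 0.12, which did not pass (adjusted p = 0.0536), though 5 of 8 other settings put it past the threshold (adjusted p from 0.000239 to 0.0866). In the fits over regions, arrays of the same rat counted as independent.

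Over all 12 groups, Nr4a2 means ran from 7.63 ± 0.07 (SD, n = 7) in SAHA HC of labelled CA1 to 9.97 ± 0.22 in vehicle RPC of labelled DG. In that order, 5 of 11 steps between neighbouring groups were larger than the larger of both SDs. From SAHA HC of labelled CA3 (8.60) up to vehicle RPC of labelled CA3 (8.88), 5 groups followed each other in steps within that spread, vehicle RPC of labelled CA1 (8.70) among them. Nr4a3 means ran from 9.32 ± 0.33 in SAHA HC of labelled CA1 to 10.35 ± 0.11 in vehicle RPC of labelled DG, and 0 of 11 steps were larger than the spread. The 2 RPC groups of labelled DG were the highest for both genes.

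**Figure D2:**
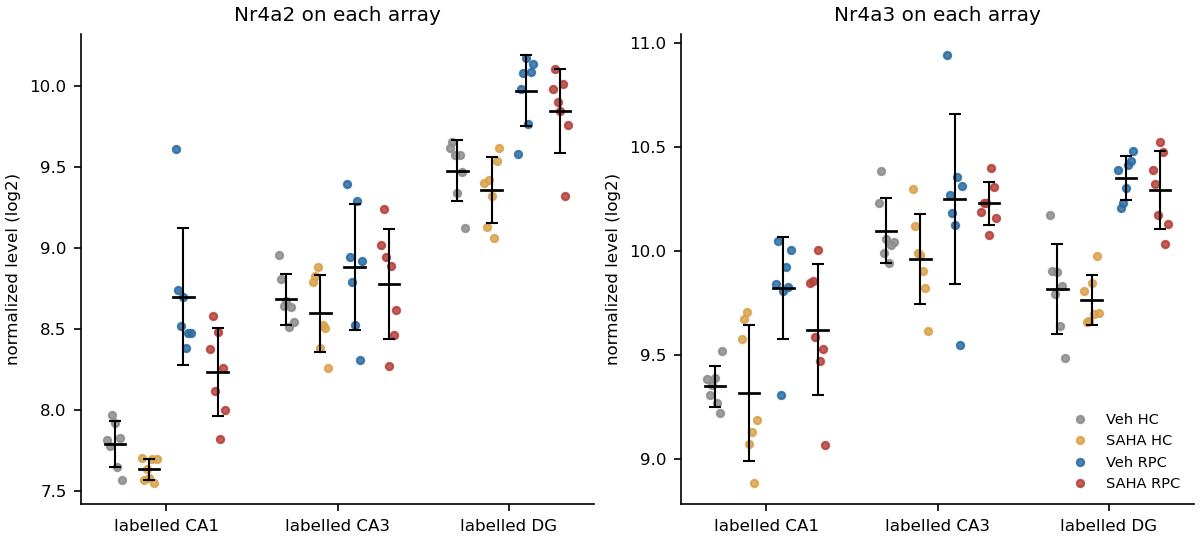
Normalized log2 level of Nr4a2 (left) and Nr4a3 (right) on each array, 7 points per group, with the mean and SD in black. In labelled CA1 the vehicle RPC arrays of Nr4a2 (8.38 to 9.61) all lie above the vehicle HC arrays (7.57 to 7.97), and in labelled DG the vehicle RPC arrays of Nr4a3 (10.20 to 10.48) all lie above the vehicle HC arrays (9.48 to 10.17).

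The comparison of RPC with HC in vehicle rats set the maze session together with the earlier training against neither. Nr4a2 rose in labelled CA1 and labelled DG, and so did Nr4a3. Neither was called in labelled CA3. A probe was called at a limma p-value under 0.05 after Benjamini-Hochberg adjustment over all probes tested in the region.

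In labelled CA1, Nr4a2 ran from 7.57 through a median of 7.81 to 7.97 in HC rats and from 8.38 through 8.52 to 9.61 in RPC rats. Every RPC array was above every HC array, and RPC replicate 1 stood far above the other 6, whose highest was 8.74. The means, 7.79 ± 0.14 and 8.70 ± 0.42 (SD, n = 7), differed by 0.91 ± 0.13 (SE), or 1.88-fold (adjusted p = 0.000448). By p-value Nr4a2 was number 4 of 9919 probes there. Of those probes, 6.44% were called, 2.46% as higher, and 0.343% had RPC arrays that all lay above the HC arrays. Without RPC replicate 1 the difference was 0.76 ± 0.10 (1.69-fold, adjusted p = 0.000189) and the other 6 RPC arrays averaged 8.55 ± 0.14.

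Nr4a3 in labelled CA1 ran from 9.22 through 9.36 to 9.52 in HC rats and from 9.31 through 9.84 to 10.05 in RPC rats. On 6 of 7 RPC arrays it was above every HC array, and RPC replicate 3 (9.31) lay among the HC arrays. The means, 9.35 ± 0.10 and 9.82 ± 0.24 (SD, n = 7), differed by 0.47 ± 0.13 (SE), or 1.39-fold (adjusted p = 0.0288). This call was near the threshold: it ended without vehicle HC replicate 2 or 6 or vehicle RPC replicate 2, 6 or 7 (adjusted p from 0.0511 to 0.065), and without the 3 arrays of low correlation (0.45, adjusted p = 0.0626). With the filter on dim probes dropped it was at an adjusted p of 0.0502.

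In labelled DG, Nr4a2 ran from 9.12 through 9.57 to 9.65 in HC rats and from 9.58 through 10.08 to 10.17 in RPC rats. On 6 of 7 RPC arrays it was above every HC array. The means, 9.48 ± 0.19 and 9.97 ± 0.22 (SD, n = 7), differed by 0.49 ± 0.11 (SE), or 1.41-fold (adjusted p = 0.0327), where 0.322% of 10858 probes were called, 0.295% as higher. The call was lost when 1 of 8 arrays was left out, vehicle HC replicate 4, 6 or 7 or vehicle RPC replicate 2, 3, 4, 6 or 7 (difference 0.43 to 0.49, adjusted p from 0.068 to 0.114). It was also lost with the replicate number as a block (adjusted p = 0.0877), with median scaling (0.244) and in 1 pooled fit of 84 arrays with a random block for the rat (0.234). In that pooled fit the SE was 0.137, against 0.109 in the fit of labelled DG, and the estimated correlation within a rat was -0.011.

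Nr4a3 in labelled DG ran from 9.48 through 9.83 to 10.17 in HC rats and from 10.20 through 10.39 to 10.48 in RPC rats. The groups did not overlap, which held in this direction for 0.35% of probes. The means, 9.82 ± 0.22 and 10.35 ± 0.11 (SD, n = 7), differed by 0.53 ± 0.08 (SE), or 1.45-fold (adjusted p = 0.000427). By p-value Nr4a3 was number 12 of 10858 probes, and each fit without 1 array kept the call (adjusted p up to 0.00215).

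In labelled CA3, Nr4a2 ran from 8.51 through 8.64 to 8.96 in HC rats and from 8.31 through 8.92 to 9.39 in RPC rats, and Nr4a3 from 9.94 through 10.04 to 10.38 and from 9.55 through 10.27 to 10.94. Both pairs of groups overlapped, and RPC replicate 6, the array of lowest correlation of all (0.814), was the lowest RPC array for both genes. The difference was 0.20 ± 0.15 for Nr4a2 (SE, n = 7, 95% interval -0.12 to 0.51, adjusted p = 0.393) and 0.15 ± 0.13 for Nr4a3 (-0.11 to 0.42, adjusted p = 0.436). Only 0.0189% of 10594 probes were called there. Without the 5 arrays of low correlation, 3 vehicle RPC and 2 SAHA RPC, the differences were 0.45 ± 0.13 (unadjusted p = 0.00169) and 0.37 ± 0.12 (unadjusted p = 0.00442), more than 1.5 times as large and still not called (adjusted p = 1.00 for both).

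Some genes listed as markers of tissue next to the hippocampus also moved in this comparison in labelled CA1. The list's median summed level in vehicle HC rats ran from 1419 (labelled CA1) through 2229 (CA3) to 5049 (DG), and which tissue it came from was not tested. Of 6 markers of subiculum, claustrum and deep cortical layers, Cplx3, Nxph4 and Gnb4 were not detected on any array of labelled CA1, and 3 were tested. Ccn2, a secreted matrix protein of deep cortical layers, rose by 0.76 ± 0.16 in RPC against HC vehicle rats (adjusted p = 0.00629) and the matrix protein Fn1 by 0.56 ± 0.13 (adjusted p = 0.0123), while the neuropeptide gene Nts differed by 0.94 ± 0.66 (adjusted p = 0.402). The summed level of the list ran from 1107 to 1738 in vehicle HC and from 1886 to 4373 in vehicle RPC. Vehicle RPC replicate 1, the highest array for Nr4a2, was also the highest of its group for Ccn2, Fn1 and Nts, with a raw Nts signal of 1480 against at most 171 on the other 6. Without it, Ccn2 still differed by 0.66 (adjusted p = 0.0135) and Fn1 by 0.46 (adjusted p = 0.0232). Of 6 tested astrocyte markers, Slc4a4 (0.64, adjusted p = 0.00979) and Gja1 (0.20, adjusted p = 0.0298) also rose, and the summed level of the list ran from 33617 to 41340 in vehicle HC and from 38196 to 42186 in vehicle RPC. Markers of CA1 pyramidal neurons summed to 650 to 1257 in vehicle HC and 827 to 1994 in vehicle RPC. Those of oligodendrocytes ran from 5060 to 8398 and from 4721 to 14714, and those of granule cells from 7565 to 8582 and from 5718 to 8693. In vehicle HC of labelled DG the CA1 and oligodendrocyte lists had medians of 7325 and 19326. The part of other tissue, of the neighbouring dissected regions or of astrocytes in the vehicle result of Nr4a2 was not tested. In SAHA rats of labelled CA1 Nr4a2 rose, Ccn2 differed by 0.11 ± 0.16 (adjusted p = 0.808), Fn1 by 0.32 ± 0.13 (adjusted p = 0.209) and Nts by 0.42 ± 0.66 (adjusted p = 0.830). The summed markers of subiculum, claustrum and deep cortical layers ran from 1024 to 1553 in SAHA HC and from 1202 to 2000 in SAHA RPC. Their part in the Nr4a2 result of SAHA rats was not tested.

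**Figure D3:**
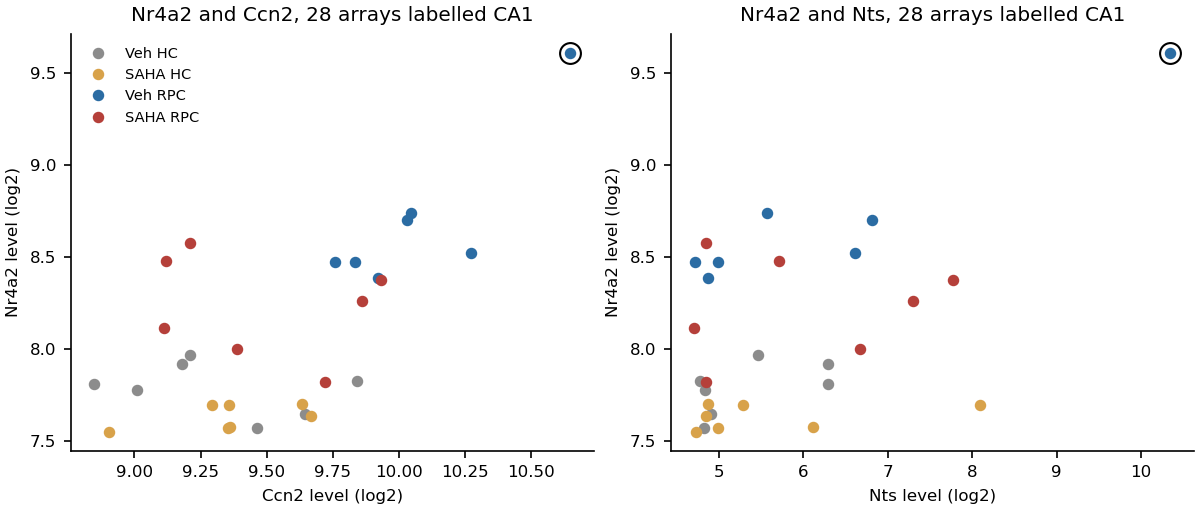
Log2 level of Nr4a2 (vertical axis) against Ccn2 (left) and Nts (right) on the 28 arrays labelled CA1, coloured by group, with vehicle RPC replicate 1 circled. That array is highest for all 3 genes. The SAHA RPC arrays run from 7.82 to 8.58 for Nr4a2 and from 9.11 to 9.93 for Ccn2. The SAHA HC arrays run from 7.55 to 7.70 and from 8.90 to 9.67.

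RPC against HC was then read in rats given SAHA. Nr4a2 rose again in labelled CA1 and labelled DG, and Nr4a3 in labelled DG. In labelled CA1, Nr4a2 ran from 7.55 through 7.63 to 7.70 in HC rats and from 7.82 through 8.26 to 8.58 in RPC rats, without overlap. The means, 7.63 ± 0.07 and 8.23 ± 0.27 (SD, n = 7), differed by 0.60 ± 0.13 (SE), or 1.52-fold (adjusted p = 0.0136). There 2.51% of probes were called, 1.76% as higher, and 0.575% had all RPC arrays above all HC arrays. Nr4a3 in labelled CA1 ran from 8.88 through 9.19 to 9.70 in HC rats and from 9.07 through 9.59 to 10.00 in RPC rats. These overlapped, and the difference of 0.30 ± 0.13 (1.23-fold) was not called (adjusted p = 0.241, 95% interval 0.04 to 0.57).

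In labelled DG under SAHA, Nr4a2 ran from 9.06 through 9.40 to 9.62 in HC rats and from 9.32 through 9.90 to 10.10 in RPC rats, with 6 of 7 RPC arrays above every HC array. The means, 9.35 ± 0.20 and 9.84 ± 0.26 (SD, n = 7), differed by 0.49 ± 0.11 (SE), or 1.41-fold (adjusted p = 0.0138), where 1.45% of probes were called, 1.21% as higher. With median scaling, or in 1 pooled fit of 84 arrays with a random block for the rat, this call was lost (adjusted p = 0.0604 and 0.102). The pooled fit again had an SE of 0.137, against 0.109 in the fit of labelled DG. Nr4a3 ran from 9.66 through 9.70 to 9.97 in HC rats and from 10.03 through 10.32 to 10.53 in RPC rats. The groups did not overlap, as for 0.442% of probes, and the difference was 0.53 ± 0.08 (SE, n = 7), or 1.44-fold (adjusted p = 0.000307). Both genes thus gave close to the same differences in labelled DG with and without the drug, from separate rats.

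In labelled CA3 under SAHA, Nr4a2 differed by 0.18 ± 0.15 (SE, n = 7, 95% interval -0.13 to 0.50) and Nr4a3 by 0.27 ± 0.13 (interval 0.00057 to 0.53). Neither was called (adjusted p = 0.999 for both), and 0.0283% of probes were. Nr4a2 ran from 8.26 through 8.52 to 8.88 in HC rats and from 8.27 through 8.89 to 9.24 in RPC rats, and Nr4a3 from 9.62 through 9.98 to 10.30 and from 10.08 through 10.23 to 10.40, with overlap for both. Without the arrays of low correlation the Nr4a2 difference was 0.35 ± 0.12 (unadjusted p = 0.0081, adjusted p = 0.486).

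**Figure D4:**
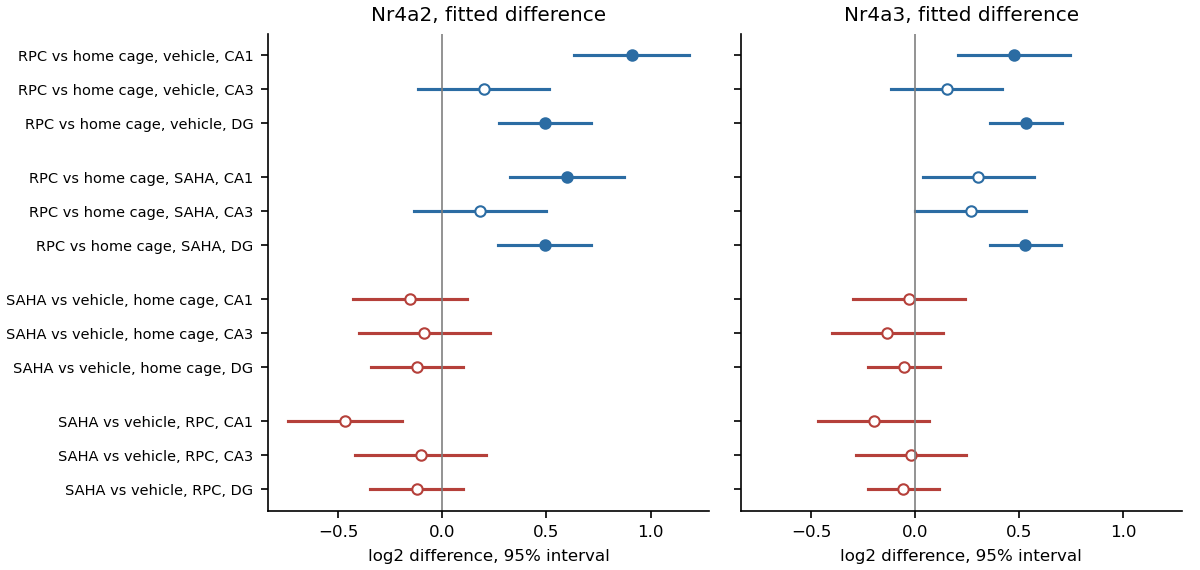
Fitted log2 differences of Nr4a2 (left) and Nr4a3 (right) with 95% intervals for RPC against home cage (blue) and SAHA against vehicle (red), by drug or behaviour and labelled region; filled points were called. The filled points are all RPC against home cage, 4 for Nr4a2 and 3 for Nr4a3, none of them in labelled CA3.

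Whether the behaviour effect differed among the 3 regions was tested with 1 F test per probe in vehicle rats. For Nr4a2 it passed (F = 6.75, adjusted p = 0.0451), where 5.52% of 11403 probes did, and for Nr4a3 it did not (F = 2.88, adjusted p = 0.200), though it did without replicates numbered 1 (F = 5.17, adjusted p = 0.0465). The number of probes that passed, 629, fell to 0 without replicates numbered 6 and reached 2129 without those numbered 1. The Nr4a2 call was lost under 6 of 8 other settings, among them the fit without the 8 arrays of low correlation (F = 2.09, adjusted p = 0.672), and without replicates numbered 2, 3, 4, 6 or 7 (adjusted p from 0.0692 to 0.203). The calls in labelled CA1 and labelled DG beside none in labelled CA3 rest on this test for any difference between regions.

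SAHA against vehicle asked for the effect of the drug, first in HC rats. Neither gene was called in any region. Nr4a2 differed by -0.16 ± 0.13 (SE, n = 7) in labelled CA1 (95% interval -0.43 to 0.12), by -0.09 ± 0.15 in labelled CA3 (-0.40 to 0.23) and by -0.12 ± 0.11 in labelled DG (-0.34 to 0.10). Nr4a3 differed by -0.03 ± 0.13 (-0.30 to 0.24), -0.13 ± 0.13 (-0.40 to 0.13) and -0.05 ± 0.08 (-0.22 to 0.12). The ranges of SAHA and vehicle arrays overlapped in each of these 6 comparisons. For Nr4a3 in labelled CA1, though, 3 SAHA arrays lay above every vehicle array and 4 below every one. The SAHA arrays there ran from 8.88 to 9.70 (SD 0.33) and the vehicle arrays from 9.22 to 9.52 (SD 0.10). All adjusted p-values were 0.873 or higher. Of all probes, 0.0101%, 0.00944% and 0.0276% were called in labelled CA1, CA3 and DG, and 710, 52 and 702 had an unadjusted p under 0.05. Without vehicle HC replicate 7 the number called in labelled DG went from 3 to 16. All 7 SAHA HC arrays of labelled CA1 were under the vehicle mean of Nr4a2, and 1 was under every vehicle array.

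After the maze, SAHA against vehicle again gave no call. The largest difference was that of Nr4a2 in labelled CA1, where vehicle rats ran from 8.38 through 8.52 to 9.61 and SAHA rats from 7.82 through 8.26 to 8.58. On 5 of 7 SAHA arrays it was below every vehicle array. The difference of -0.47 ± 0.13 (SE, n = 7), or 1.38-fold lower (95% interval -0.74 to -0.19), had an unadjusted p of 0.00164 and an adjusted p of 0.193, where 0.0605% of probes were called (6 probes, and between 1 and 65 without 1 array, the most without vehicle RPC replicate 3). Without vehicle RPC replicate 1 the difference was -0.32 ± 0.10 (adjusted p = 0.285). Ccn2 and Fn1 were lower by similar amounts on the same arrays, -0.59 ± 0.16 (adjusted p = 0.152) and -0.54 ± 0.13 (adjusted p = 0.130), and their part in the Nr4a2 difference was not tested.

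Elsewhere after the maze the drug's intervals held 0. Nr4a2 differed by -0.10 ± 0.15 (SE, n = 7) in labelled CA3 (95% interval -0.42 to 0.21) and by -0.12 ± 0.11 in labelled DG (-0.35 to 0.10), where 0% and 0.0829% of probes were called. Nr4a3 differed by -0.20 ± 0.13 in labelled CA1 (-0.47 to 0.07), by -0.02 ± 0.13 in labelled CA3 (-0.29 to 0.25) and by -0.06 ± 0.08 in labelled DG (-0.23 to 0.11). In labelled CA3 no probe was called by limma, while 538 had an unadjusted p under 0.05, array weights gave 1 call and 1 pooled fit of 84 arrays with a random block for the rat gave 11.

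The drug by behaviour interaction asked whether the difference of RPC from HC was unlike in SAHA and vehicle rats. It was -0.31 ± 0.19 for Nr4a2 in labelled CA1 (SE, 95% interval -0.70 to 0.08, adjusted p = 0.653), and -0.16 without vehicle RPC replicate 1. The other 5 interactions lay between -0.17 and 0.12, with adjusted p of 0.797 or higher. In labelled DG they were -0.0018 ± 0.15 for Nr4a2 and -0.0039 ± 0.12 for Nr4a3. Of probes tested, 0.0101%, 0% and 0.00921% were called in labelled CA1, CA3 and DG, and in labelled CA3, with no limma call, 232 had an unadjusted p under 0.05 and none of the other settings called a probe. The comparisons above share groups with each other, since each group of rats served in an effect of drug and in one of behaviour.

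Nr4a2 and Nr4a3 went up and down together over arrays. After each probe was centred on its mean in each labelled region, their Pearson r over 84 arrays was 0.72, and it was 0.66, 0.76 and 0.81 over the 28 arrays of labelled CA1, CA3 and DG. After centring on each of the 12 group means, which removes the effects of drug and behaviour, r was 0.49 over 84 arrays, and 0.27, 0.72 and 0.45 by region. The arrays share their rats and their normalization, and these values are descriptions. Nr4a3 was the gene second nearest to Nr4a2 among 7124 probes of named genes, after Add3 (0.73), a membrane skeleton protein, and before the cAMP-responsive factor Crem (0.71), the zinc finger gene Zfp24 (0.71) and the AP-1 factor Fos (0.71). Nr4a2 was in turn the gene nearest to Nr4a3, followed by Zfp24 (0.71), Zbtb41 (0.68), Egr1 (0.67), an activity-induced zinc finger factor, and Crem (0.67). By rank correlation 3 of these 5 stayed among the first 5 for Nr4a2, and all 5 for Nr4a3.

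Within groups, other genes came nearest. For Nr4a2 they were the homeobox factor Meis2 (r = 0.64), the microtubule kinase Dclk1 (0.62), Prickle2 (0.62), the motor protein Myo5a (0.61) and the secretory granule gene Scg3 (0.59). For Nr4a3 they were Rufy2 (0.66), Paip1 (0.65), Tmem30a (0.65), the importin Kpna4 (0.64) and Ttpa (0.64). These are again correlations over 84 arrays. By rank correlation, Prickle2 and Scg3 stayed among the first 5 for Nr4a2, while Myo5a, Meis2 and Dclk1 were numbers 20, 24 and 71. For Nr4a3, Paip1, Tmem30a and Kpna4 stayed among the first 5, and Rufy2 and Ttpa were numbers 6 and 10.

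Another 24 immediate early genes were listed beside the members. In vehicle rats RPC against HC raised 6 of 17 tested in labelled CA1 and lowered 1, with a median difference of 0.32 against -0.02 over all probes. Of all probes, 2.46%, 0.0189% and 0.295% were called as higher in labelled CA1, CA3 and DG. In labelled CA1, Fos rose by 1.11 ± 0.16 (SE, adjusted p = 0.000372), Junb by 0.60 ± 0.09 (adjusted p = 0.000372) and Arc, which acts at synapses, by 0.98 ± 0.16 (adjusted p = 0.000931), while Jun fell by 0.42 ± 0.06 (adjusted p = 0.000372). In labelled CA3, 2 of 18 rose, Junb (1.16 ± 0.17, adjusted p = 0.00169) and Arc (0.95 ± 0.16, adjusted p = 0.0106), with a median of 0.40 against 0.04. In labelled DG, 10 of 18 rose, with a median of 0.50 against -0.01, led by Junb (0.91 ± 0.07), Egr4 (1.06 ± 0.11), Npas4 (1.31 ± 0.15) and Egr2 (0.64 ± 0.08).

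Set beside these, the Nr4a2 difference of 0.91 in labelled CA1 lay among the larger ones, and both members' differences in labelled DG (0.49 and 0.53) lay near the list's median. Without vehicle RPC replicate 1 of labelled CA1 the count was 5 of 17 higher and 1 lower, and without the arrays of low correlation it was 6 and 1 in labelled CA1 and 1 of 18, Fos, in labelled CA3. Under SAHA the counts were 9 of 17, 2 of 18 and 15 of 18 higher and 0 lower, with medians of 0.48, 0.47 and 0.66. Of all probes, 1.76%, 0.0283% and 1.21% were called as higher under SAHA in labelled CA1, CA3 and DG. Dusp1, a phosphatase that turns MAP kinases off, had the smallest p in labelled CA1 (1.23 ± 0.15, adjusted p = 4.12e-05), and Klf2, a zinc finger factor, in labelled DG (0.88 ± 0.09, adjusted p = 3.53e-07). Without vehicle RPC replicate 1 the SAHA count in labelled CA1 was 11 higher and 1 lower. SAHA against vehicle called 0 of this list with limma in each region and behaviour, where 0 to 4 genes a comparison had an unadjusted p under 0.05. Among all probes, between 52 of 10594 and 1049 of 9919 did so in these comparisons.

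**Figure D5:**
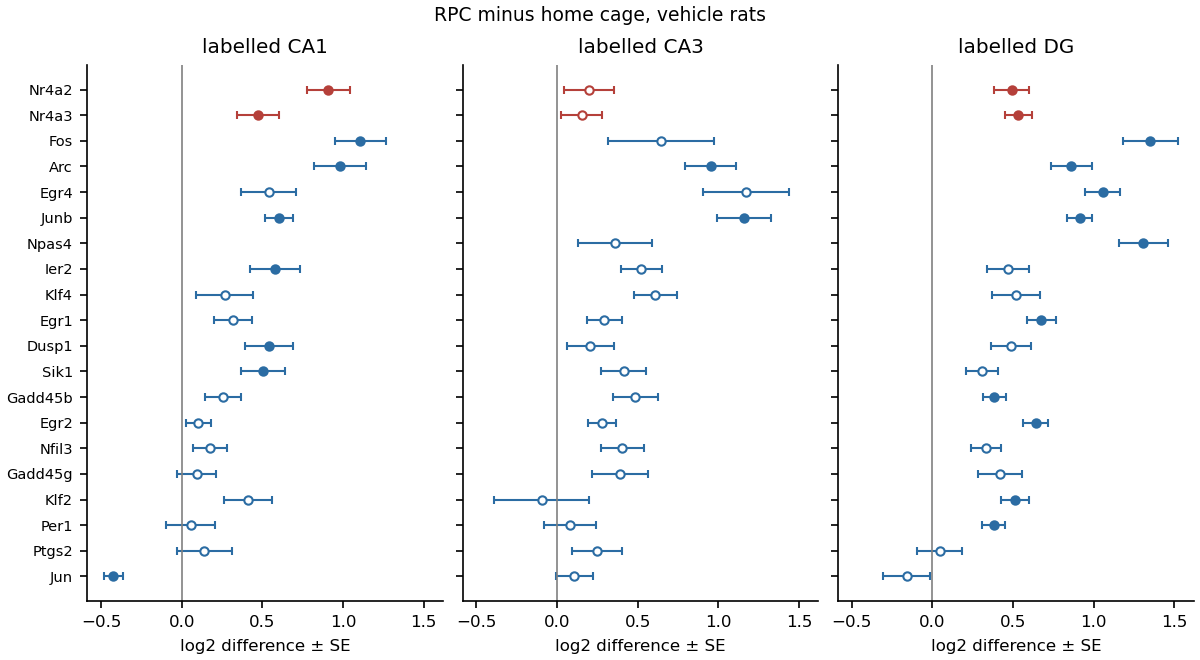
Log2 differences of RPC minus home cage in vehicle rats, with SE, for Nr4a2 and Nr4a3 (red) and the tested immediate early genes (blue), by labelled region; filled points were called. Both members are called in labelled CA1 and labelled DG, and in labelled CA3 the called genes are Junb and Arc.

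Of the genes known to drive, partner or follow NR4A, Crem was the one called more than once. It codes for a CREB-family factor and was among 6 tested of 14 upstream inputs. Crem rose with RPC in vehicle rats in labelled CA1 (0.52 ± 0.11, adjusted p = 0.00621) and labelled DG (0.48 ± 0.06, adjusted p = 2.39e-05) and in SAHA rats in labelled DG (0.34 ± 0.06, adjusted p = 0.00287), and after the maze it was lower with SAHA in labelled DG (-0.33 ± 0.06, adjusted p = 0.022). The retinoid X receptors that pair with Nr4a1 and Nr4a2 were not called in any of the 12 comparisons of drug or behaviour, and neither were the other nuclear receptors (14 to 16 of 45 tested) nor the genes reported as NR4A targets (4 to 6 of 11 tested, such as Bdnf). At an unadjusted limma p under 0.05 these 3 lists had 0 of 32, 7 of 176 and 3 of 56 results. Among all probes, between 52 of 10594 (SAHA against vehicle, HC, labelled CA3) and 2362 of 9919 (RPC against HC, vehicle, labelled CA1) did so in a comparison. The medians of the 3 lists in vehicle rats of labelled DG were 0.0042, 0.02 and 0.04 against -0.01 over all probes. Among 5 tested corepressors, Ncor1 rose with RPC in labelled CA1 of vehicle rats (0.26 ± 0.07, adjusted p = 0.028). This call ended without the arrays of low correlation (0.23, adjusted p = 0.0811) but stayed without vehicle RPC replicate 1 (0.24, adjusted p = 0.0419). Hdac2, a target of SAHA, rose with RPC against HC in labelled CA1 of SAHA rats (0.29 ± 0.07, adjusted p = 0.0305), where 2.51% of all probes were called. SAHA against vehicle did not call Hdac2. Of 13 tested chaperones of the endoplasmic reticulum, 1 fell, Dnajb11 with RPC in labelled CA1 of vehicle rats (-0.17 ± 0.05, adjusted p = 0.0444). It too was not called without the arrays of low correlation (adjusted p = 0.0859) but stayed called without vehicle RPC replicate 1 (adjusted p = 0.0438). In that comparison 6.44% of all probes were called, so 1 gene of a short list is near the background.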

How the data were processed

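Bead signal intensities for 22523 probes on 84 arrays were deposited by the authors without normalization, each with a detection p-value, and the submitters' processing notes name GenomeStudio 2011.1. In the detection p-values as deposited, 0.01 stands for 0 (29.8% of entries). The authors also deposited a score per probe and array (a z-score), which equals log10 signal less the array's mean over its SD to within 0.013, and it served as an alternative. The sources used here give neither array positions nor other steps.

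From the intensities, limma 3.58.1 (R 4.3.3) corrected background with normexp from the detection p-values (offset 16) and quantile-normalized the 84 arrays. Tests were run on probes with a detection p-value under 0.01 on 7 or more of a region's 28 arrays, which left 9919, 10594 and 10858 probes in labelled CA1, CA3 and DG and 11403 overall. Each region had 1 fit of its 4 groups (lmFit, eBayes with trend), and region differences and the F test came from 1 fit of 84 arrays. P-values were adjusted by the Benjamini-Hochberg method over all tested probes. Those of the fits within a region measure the spread between these rats. Those of the fit of 84 arrays measure the spread between arrays, with arrays of the same rat counted as independent. The number of arrays limits the precision. Symbols came from the platform annotation: 13793 probes had 1 symbol, 0 had several and 8730 had none. Promoter sequences came from RefSeq (GRCr8).

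The members and gene lists were chosen with earlier results of these data known. Genes named beside the members were the 5 with the highest Pearson r under each centring, and genes of the lists that were called. The alternatives were array weights, median scaling, no background correction, no filter, a stricter filter, the z-scores, 1 pooled fit of 84 arrays with the rat as a random block (arrays of one group with the same number taken as 1 rat), the replicate number as a block, leaving out arrays of low correlation and leaving out each array. The fit was also run on simulated data, drawn with independent noise for each probe and without outlying arrays. That run does not cover the changes in call counts seen here when arrays were left out.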

Additional observations from a re-analysis of the deposited data

Results flagged for a closer look

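Within groups of 7 arrays, the gap from the highest or lowest array to the next, as a share of the group's range, was over Dixon's 95% critical value in 2 of the 36 combinations of gene and group examined, and chance alone marks about 1 group in 20. Nr4a2 on vehicle RPC replicate 1 of labelled CA1 was at 9.61, with the next array at 8.74 (gap over range 0.709). Without it the group averaged 8.55 ± 0.14 (SD, n = 6). Nr4a3 on vehicle RPC replicate 3 of labelled CA1 was at 9.31, with the next array at 9.81 (gap over range 0.671), and without it the group averaged 9.91 ± 0.10 (n = 6).

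The effect of behaviour on Nr4a2 in vehicle rats differed among the 3 labelled regions by limma's F test (adjusted p = 0.0451), with differences of 0.91, 0.20 and 0.49 in labelled CA1, CA3 and DG. Without the 8 arrays of low correlation the adjusted p was 0.672.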

How the results depend on the processing

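Over 38 results, 293 of 324 values under other settings and 833 of 896 values without 1 array or replicate number kept their direction and their side of the threshold. The F test among regions for Nr4a2 was lost with array weights (4.85), median scaling (4.65), no background correction (5.80), no filter (6.82), the z-scores (5.32) and without arrays of low correlation (2.09). It ran from 5.26 to 7.92 without 1 replicate number (adjusted p 0.0233 to 0.203), and that for Nr4a3 from 1.26 to 5.17, passing without replicate number 1 (adjusted p = 0.0465). Nr4a1 was detected on 37 arrays at a detection p-value under 0.05. The Nr4a3 difference between labelled CA3 and DG passed with array weights (0.22), median scaling (0.56), the strict filter (0.28), the z-scores (0.16) and without arrays of low correlation (0.28), and ran from 0.23 to 0.32 without 1 replicate number. RPC against HC was lost for Nr4a2 in SAHA rats of labelled CA1 with the z-scores (0.24) and of labelled DG with the pooled fit and rat block (0.49) and median scaling (0.48), for Nr4a2 in vehicle rats of labelled DG with the pooled fit and rat block (0.49), median scaling (0.46) and the replicate block (0.49), and for Nr4a3 in vehicle rats of labelled CA1 with no filter (0.47) and without arrays of low correlation (0.45). Without 1 array these ranged from 0.43 to 0.56 (Nr4a2, vehicle, labelled DG) and from 0.44 to 0.56 (Nr4a3, vehicle, labelled CA1).

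Interactions near 0 changed sign, none of them called: Nr4a2 in labelled CA3 with array weights (0.061), median scaling (0.13) and the z-scores (0.049), Nr4a2 in labelled DG with the same settings (0.048, 0.021 and 0.0043), Nr4a3 in labelled CA3 without arrays of low correlation (-0.093) and Nr4a3 in labelled DG with array weights (0.0028) and median scaling (0.019). Without 1 array they ran from -0.11 to 0.067, -0.067 to 0.086, -0.0014 to 0.23 and -0.063 to 0.051 in that order. SAHA against vehicle changed sign for Nr4a3 in HC of labelled CA1 with array weights (0.055), and in RPC of labelled CA3 for Nr4a2 with the z-scores (0.0043) and for Nr4a3 with median scaling (0.0027). Without 1 array the Nr4a3 values ran from -0.095 to 0.042 (HC, labelled CA1), -0.11 to 0.0061 (HC, labelled DG) and -0.14 to 0.096 (RPC, labelled CA3). The cause was not tested for any of these changes. z-score values are on their own scale.

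Replicate numbers did not pair arrays of different groups within a region. Mean correlations of same-numbered deviations ran from -0.21 to 0.18, 27 of 84 pairs were over 0.1, and 6 correlated best with their own number. Between regions of one group, where a number may mark a rat, mean correlations ran from -0.085 to 0.14. In the pooled fit the estimated correlation of same-numbered arrays of a group was -0.011, which is a correlation within a rat only if the numbers mark rats. The replicate block changed no other member's call. Counts of called probes moved by over 1.5 times between settings, in vehicle RPC against HC from 124 to 1373 in labelled CA1 (639 in the fit reported), 1 to 2299 in labelled CA3 (2) and 19 to 44 in labelled DG (35), in SAHA rats from 124 to 918, 0 to 28 and 45 to 334, and for the F test from 2 to 1772 (629), or from 0 to 2129 without 1 replicate number. For SAHA against vehicle they ran from 0 to 7, 0 to 7 and 1 to 17 in HC rats (1, 1 and 3) and from 1 to 83, 0 to 11 and 4 to 28 in RPC rats (6, 0 and 9), and without 1 array from 1 to 4, 1 to 1 and 1 to 16, and from 1 to 65, 0 to 4 and 4 to 22. Without 1 array, RPC against HC ran from 327 to 768, 2 to 4 and 23 to 51 in vehicle rats and from 102 to 357, 0 to 7 and 98 to 253 in SAHA rats. Median scaling shifted the median of all probes by -0.21, 0.36 and 0.16 in the region comparisons of labelled CA1 minus DG, CA3 minus CA1 and CA3 minus DG, and relative to it the Nr4a3 differences were -0.49, 0.90 and 0.41. The list counts and neighbouring markers without the arrays in doubt were chosen after seeing the data.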

Other observations

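Markers of other cell types were rarely called in the 12 comparisons of drug or behaviour. The endothelial tight junction gene Cldn5 was lower with SAHA after the maze in labelled CA1 (-0.36 ± 0.07, SE, limma adjusted p = 0.0369). This call ended without vehicle RPC replicate 1 (-0.31 ± 0.07, adjusted p = 0.0893). It stayed without all arrays of low correlation, that array among them (-0.31 ± 0.06, adjusted p = 0.0275). The endothelial receptor Tie1 was higher with SAHA after the maze in labelled DG (0.40 ± 0.08, adjusted p = 0.0336). The microglial complement gene C1qb rose with RPC under SAHA in labelled DG (0.21 ± 0.05, adjusted p = 0.0299), where Nr4a2 and Nr4a3 also rose. Markers of CA1 and CA3 pyramidal neurons, granule cells, interneurons, oligodendrocytes and choroid plexus had 0 calls by limma, with 3 of 52, 2 of 44, 7 of 52, 8 of 72, 9 of 60 and 0 of 12 results at an unadjusted p under 0.05. Among all probes, between 52 of 10594 and 2362 of 9919 were under it in a comparison.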
